A study of Homo sapiens with 27 samples.

Results

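The cleavage stimulation factor (CstF) is the protein complex that binds the U-rich or GU-rich element downstream of a poly(A) site and helps the cleavage and polyadenylation specificity factor (CPSF) cut the pre-mRNA there. Its subunits are encoded by 4 genes, CSTF1, CSTF2, CSTF2T and CSTF3, which were chosen by name from the 20268 genes of the count table. All 4 passed the filter on low counts in every fit. The changes of these genes after knockdown of CPSF1, the largest CPSF subunit, were known when the genes were chosen, so that comparison is described here without a test. The same holds for the size of the change between lines, which is built from those changes. Tests were kept for the comparison of hairpins and of lines with the control hairpin.

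RNA was sequenced from 3 human prostate cancer cell lines. LNCaP is an hormone-sensitive line, LNCaP95 is a derivative of it that grows without androgen, and 22Rv1 is a hormone-insensitive line of another origin. Each line was transduced with lentivirus encoding CTRL sh, CPSF1 sh1 or CPSF1 sh2, and each of the 9 resulting groups had 3 biological replicates, giving 27 libraries. The control cells therefore also carried a lentiviral hairpin and went through puromycin selection, at 2 µg/ml for LNCaP and 22Rv1 and 1 µg/ml in the labels' remaining statement, which names no line and was read as LNCaP95. The expanded cells were seeded at 500000 per well and grown for 72 h. LNCaP95 was kept in phenol red-free medium, so the line and its medium cannot be told apart. The hairpin cells were selected populations with reduced CPSF1 mRNA and not knockouts. The methods call the replicates biological, and nothing states that they came from separate transductions, so p-values measure the spread between these libraries. Libraries held between 8515624 and 15904518 counts on genes.

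In the complex, CSTF3 is the scaffold that forms a dimer and holds the other subunits. CSTF2 carries the RNA recognition motif that contacts the downstream element, and CSTF2T is its paralog, an intronless copy that can take its place in many cells. CSTF1 is a WD-repeat protein that contacts the C-terminal domain of RNA polymerase II and the BARD1 protein. CSTF3 is also known for a poly(A) site in one of its own introns. Use of that site gives a short mRNA at the expense of the full-length mRNA and has been described as a way in which the gene limits its own product.

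The deposited table gives hg19 (GRCh37) coordinates for the exons in which reads were counted. CSTF3 lies on the minus strand at chr11:33098734-33183917, with 26 exon blocks of 4517 bases in all. CSTF1 lies on the plus strand at chr20:54967427-54979518, with 6 blocks of 2546 bases. CSTF2 lies on the plus strand at chrX:100075384-100095921, with 16 blocks of 2151 bases. CSTF2T lies on the minus strand at chr10:53455247-53459355 and is a single exon of 4109 bases, as are 7.27% of the genes in the table. It sits inside PRKG1, a gene on the opposite strand.

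The intronic site of CSTF3 bears on what its count means, so the sequences around it are shown. In the GENCODE annotation lifted to GRCh37, the full-length transcript of CSTF3 has 21 exons and ends at position 33106130 of chromosome 11. A short transcript has 3 exons, and its last exon reads on past exon 3 for 701 bases of intron 3, at chr11:33162512-33163212. That last exon is a counted exon of the deposited table. The lines below, all 5′ to 3′ on the gene's strand in GRCh37, give the border of exon 3 (capitals) and intron 3 (lower case) at chr11:33163198-33163227, both ATTAAA copies (capitals) found in those 701 bases, 146 and 216 bases into the intron, at chr11:33163050-33163079 and chr11:33162980-33163009, and the AATAAA (capitals) before the end of the full-length mRNA at chr11:33106132-33106161.
Exon 3 border: TACATTGAAGCAGAGgttactattttattt
Intron 3, first ATTAAA: tataaaggagtaATTAAAatgaatttttga
Intron 3, second ATTAAA: agttgcaacaacATTAAAacagtttcaatg
Full-length end: agtcctttaaaaAATAAAaggattcagaaa
Both hexamers were searched on the gene's strand only. The hexamer AATAAA or its common variant ATTAAA was present in the last 40 bases of 67.6% of 20255 genes with a deposited end on GRCh37 chromosomes. That share was taken at the outermost deposited end of each gene, whereas the CSTF3 ends here are those of GENCODE transcripts. The AATAAA of the full-length transcript began 20 bases before the annotated end. The last 40 bases of the short transcript held neither hexamer. Another annotated short transcript keeps intron 2 and ends in intron 3 at position 33163011, between both ATTAAA copies. Its last 40 bases held neither hexamer either. A match of letters is a description and not a used site.

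Because the count of CSTF3 is a sum over the exons of all its transcripts, 62.3% of the 4517 counted bases belonged to the full-length transcript and 19.0% lay in intron 3. Reads of the short and the full-length mRNA were therefore added together, and a change in CSTF3 counts cannot be told apart from a change in the balance of these mRNAs. The counted exons also run to position 33098734, past the end of the full-length transcript at 33106130 on this strand. Reads from beyond that end were therefore added as well, and their part in the CSTF3 counts was not tested. The same limits apply to every CSTF3 value that follows. The counted exons of CSTF1 stop at 54979518, before the end of its longest GENCODE coding transcript at 54981418. Those of CSTF2 stop at 100095921, before the end of a GENCODE coding transcript at 100096509. Reads lying wholly past these stops were not counted, and what this does to the CSTF1 and CSTF2 values was not tested.

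CSTF2 and CSTF2T were checked for reads that could be counted to the wrong paralog. Their coding sequences were 81.2% identical over 1685 aligned bases. Of the 2496 windows of 75 bases, the read length at alignment, in the CSTF2 transcript, 0 had a copy in the CSTF2T transcript with at most 2 mismatches. The longest run that both transcripts share is 41 coding bases, given here to show how far their likeness goes.
Shared by CSTF2 and CSTF2T: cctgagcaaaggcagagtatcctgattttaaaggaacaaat

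The target of the hairpins was examined first. CPSF1 was at 153, 154 and 156 CPM (counts scaled to a common library size) in the 3 LNCaP CTRL sh libraries and between 87.6 and 109.9 CPM in the 6 libraries with a CPSF1 hairpin. In LNCaP95 it was at 98.0, 118 and 129 CPM with CTRL sh and between 57.9 and 69.5 CPM with a CPSF1 hairpin. In 22Rv1 it was at 187, 187 and 194 CPM against 113.6 to 145 CPM. The hairpin libraries were below the control libraries in every line, and the control libraries of LNCaP95 were the most spread. CPM here are scaled by TMM, edgeR's trimmed mean normalization, over all 27 libraries.

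Of the genes that mark luminal prostate cells, HOXB13 was at 349 to 618 CPM, KRT8 at 398 to 915 CPM and KRT18 at 270.5 to 423 CPM over all libraries. With the CPSF1 hairpins HOXB13 had log2 fold changes of -0.29, 0.27 and 0.07 in LNCaP, LNCaP95 and 22Rv1. Those of KRT8 were 0.38, -0.43 and -0.11, and those of KRT18 were 0.01, -0.21 and -0.17. The basal markers KRT5 and TP63 summed to at most 0.475 CPM, and the immune markers PTPRC and CD3E to at most 0.377 CPM. The stromal markers COL1A1, COL1A2 and DCN summed to 13.7 to 26.8 CPM in LNCaP, 43.4 to 73.9 CPM in LNCaP95 and 11.8 to 14.7 CPM in 22Rv1, nearly all from COL1A1, while COL1A2 and DCN had a median of 0 CPM. COL1A1 fell with the CPSF1 hairpins in LNCaP and LNCaP95 (log2 fold changes of -0.71 and -0.40). Its LNCaP95 hairpin libraries overlapped the controls. The endothelial marker VWF was at 9.45 to 28.7 CPM in LNCaP, where it fell (log2 fold change -1.23), and at most 4.43 CPM in the other lines. The part of these markers in the results below was not tested.

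CSTF3 was the gene of the 4 with the largest values after CPSF1 knockdown, and it was higher in all 18 hairpin libraries than in every control library of the same line. In LNCaP it was at 76.0, 79.0 and 79.8 CPM with CTRL sh, at 150.3, 151 and 157 CPM with CPSF1 sh1, and at 167, 177.5 and 178 CPM with CPSF1 sh2. These 3 groups did not overlap. The mean with CTRL sh was 78.2 CPM ± 2.01 (SD, n = 3) and the mean with both hairpins was 163 CPM ± 12.5 (SD, n = 6), a log2 fold change of 1.08 (SE 0.061).

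In LNCaP95, CSTF3 was at 35.5, 43.2 and 47.5 CPM with CTRL sh, at 103.9, 105 and 110.5 CPM with CPSF1 sh1, and at 105, 111 and 113 CPM with CPSF1 sh2. The hairpin groups overlapped each other and stood apart from the controls. The log2 fold change was 1.36 (SE 0.078), a ratio of 2.57. The control libraries of LNCaP95 had a coefficient of variation of 14.5% for this gene, against 2.56% in LNCaP and 2.13% in 22Rv1. Replicate 1 had the lowest CSTF3 and the highest CPSF1 of the 3, at 35.5 and 129 CPM. Without it the log2 fold change was 1.24.

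In 22Rv1, CSTF3 was at 89.3, 91.9 and 93.1 CPM with CTRL sh, at 129.95, 142 and 143 CPM with CPSF1 sh1, and at 149, 150.5 and 156 CPM with CPSF1 sh2. All 3 groups were again separate, and the log2 fold change was 0.67 (SE 0.057), a ratio of 1.59. Among all genes tested, 98.6% in LNCaP, 98.7% in LNCaP95 and 98.4% in 22Rv1 had a lower log2 fold change than CSTF3. The rule that chose the gene used this contrast, so its place is a description. The share of genes with all 6 hairpin libraries above the 3 control libraries was 26.7% (LNCaP), 30.4% (LNCaP95) and 13.1% (22Rv1). The share with all 6 below was 29.1%, 29.6% and 15.1%. No share was computed for 3 hairpin libraries against 3 others.

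**Figure D1:**
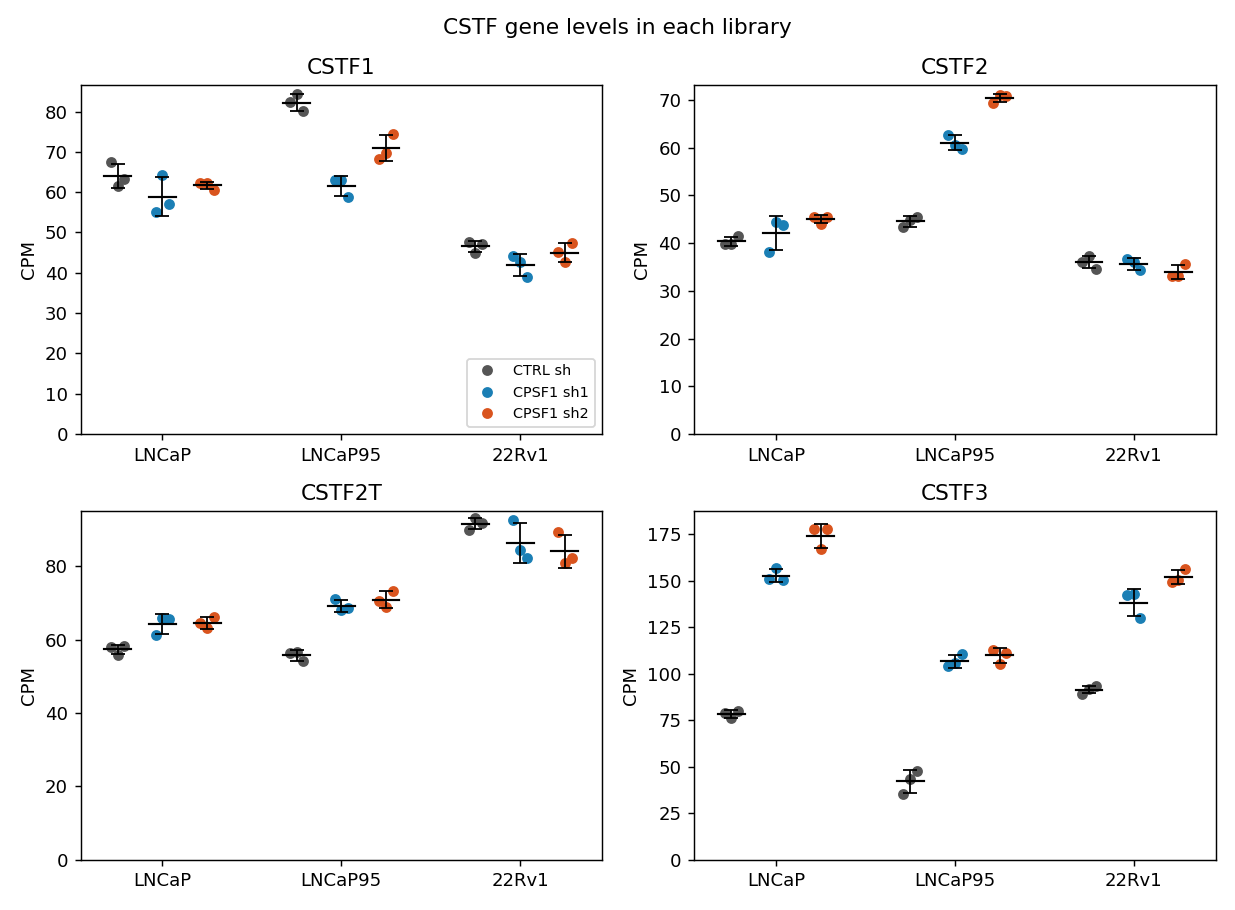
Level of each CSTF gene in CPM (vertical axis, from 0) in the 27 libraries, by cell line (horizontal axis) and hairpin (colour); points are libraries, bars the mean and SD of 3. CSTF3 is higher with both CPSF1 hairpins than with CTRL sh in all 3 lines, and its control libraries are lowest in LNCaP95, at 35.5 to 47.5 CPM.

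CSTF1 went the other way in LNCaP95, where it was at 80.05, 82.3 and 84.3 CPM with CTRL sh, at 58.8, 63.0 and 63.1 CPM with CPSF1 sh1, and at 68.3, 69.8 and 74.6 CPM with CPSF1 sh2. No hairpin library reached the controls, as was so for 29.6% of all genes tested in LNCaP95. The log2 fold change of CSTF1 was -0.32 (SE 0.068). In LNCaP it was at 61.6 to 67.4 CPM with CTRL sh and 55.2 to 64.3 CPM with the CPSF1 hairpins, and in 22Rv1 at 44.9 to 47.6 CPM against 38.9 to 47.3 CPM. These ranges overlapped, with log2 fold changes of -0.07 (SE 0.053) and -0.10 (SE 0.063). By hairpin, the 22Rv1 libraries with CPSF1 sh1 were all below the controls, at 38.9 to 44.2 CPM. Those with CPSF1 sh2 overlapped them, at 42.6 to 47.3 CPM. The share of all genes for which a single hairpin stood apart from the controls was not computed.

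CSTF2 showed its largest difference in LNCaP95 as well, at 43.3, 44.9 and 45.6 CPM with CTRL sh, 59.8, 60.6 and 62.8 CPM with CPSF1 sh1, and 69.5, 70.8 and 71.0 CPM with CPSF1 sh2. The 3 groups were separate and ordered CTRL sh, CPSF1 sh1, CPSF1 sh2. Of all genes tested in LNCaP95, 30.4% had all 6 hairpin libraries above the controls. The log2 fold change of CSTF2 was 0.55 (SE 0.071). In LNCaP the 3 control libraries were at 39.8 to 41.5 CPM and the 6 hairpin libraries at 38.1 to 45.5 CPM, and in 22Rv1 they were at 34.7 to 37.2 and 33.1 to 36.7 CPM. Both ranges overlapped, and the log2 fold changes were 0.12 (SE 0.059) and -0.05 (SE 0.059). By hairpin, the LNCaP libraries with CPSF1 sh2 were all above the controls, at 44.1 to 45.5 CPM. Those with CPSF1 sh1 overlapped them, at 38.1 to 44.5 CPM. Here too no share of all genes was computed for a single hairpin.

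CSTF2T, the intronless paralog, was at 55.9, 57.9 and 58.1 CPM in the LNCaP controls and at 61.2 to 66.2 CPM with the CPSF1 hairpins, with no overlap and a log2 fold change of 0.18 (SE 0.044). In LNCaP95 it was at 54.1, 56.4 and 56.5 CPM against 67.9 to 73.3 CPM, also without overlap, with a log2 fold change of 0.32 (SE 0.046). All 6 hairpin libraries lay above the controls for 26.7% of all genes in LNCaP and 30.4% in LNCaP95. In 22Rv1 the direction of CSTF2T was the opposite, at 89.96, 91.8 and 93.1 CPM against 80.8 to 92.4 CPM. That log2 fold change was -0.11 (SE 0.052), and 1 hairpin library lay within the range of the controls. CSTF2T has no intron and hence no intronic poly(A) site, so the limit that such a site sets on CSTF3 counts does not apply to it.

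**Figure D2:**
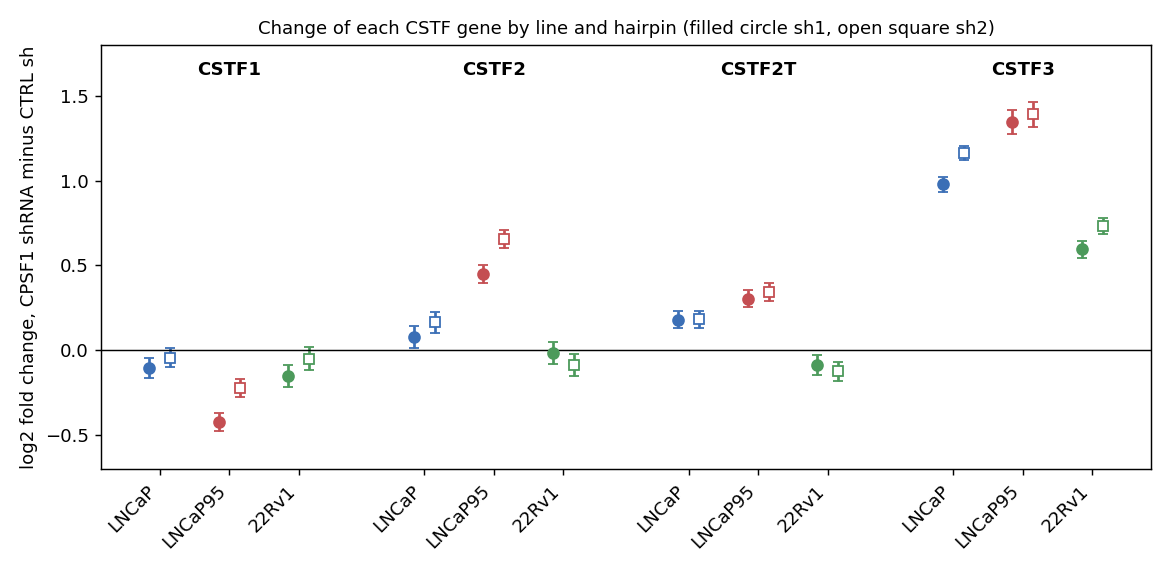
Log2 fold change of each CSTF gene against CTRL sh (vertical axis) for CPSF1 sh1 (filled circles) and CPSF1 sh2 (open squares) in each line (horizontal axis and colour), with the SE of the edgeR fit of that line as bars. CSTF3 is above 0 in all 6 comparisons and CSTF1 below 0 in all 6, while CSTF2 and CSTF2T lie below 0 in 22Rv1 only.

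Both hairpins were set against the same 3 controls of a line, so their changes are not independent. The hairpins were also compared with each other, a contrast between libraries that all had reduced CPSF1. Of 12 tests with the quasi-likelihood F-test of edgeR, adjusted over all genes by the Benjamini-Hochberg method, 3 passed 0.05 and all 3 were higher with CPSF1 sh2. CSTF3 in LNCaP was 1.14 times as high with CPSF1 sh2, a log2 difference of 0.19 (SE 0.039, adjusted p = 0.0030). CSTF2 and CSTF1 in LNCaP95 were 1.15 times as high each, with log2 differences of 0.21 (SE 0.050, adjusted p = 0.0035) and 0.20 (SE 0.053, adjusted p = 0.0060). For CSTF1 this brought the level with CPSF1 sh2 nearer to the control level, and for CSTF2 farther from it. The background of all genes that passed in either direction was 14.8% for LNCaP, 34.1% for LNCaP95 and 11.3% for 22Rv1. Of all genes, 6.53%, 16.5% and 5.47% in that order were higher with CPSF1 sh2. Taken in either direction, 3 of 12 is thus near the share of genes in general.

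CSTF3 in 22Rv1 had a log2 difference of 0.14 (SE 0.048), with all 3 CPSF1 sh2 libraries above the CPSF1 sh1 libraries, but an adjusted p of 0.079 in the edgeR test. In LNCaP95 it was 0.04 (SE 0.064, adjusted p = 0.62). CSTF2T differed least between hairpins, with log2 differences of 0.0031 in LNCaP, 0.037 in LNCaP95 and -0.036 in 22Rv1 and edgeR adjusted p-values from 0.60 to 0.98. The means of CPSF1 itself with sh1 and sh2 were 102.7 and 92.96 CPM in LNCaP, 62.3 CPM for each in LNCaP95, and 131 and 137 CPM in 22Rv1, with adjusted p-values of 0.077, 1.00 and 0.58 in the same test. CPSF1 sh2 thus went with the lower mean CPSF1 and the higher CSTF3 in LNCaP, where only the CSTF3 difference passed the test. In 22Rv1 it went with the higher mean of both, and neither difference passed. The part of CPSF1 level in these differences was not tested.

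**Figure D3:**
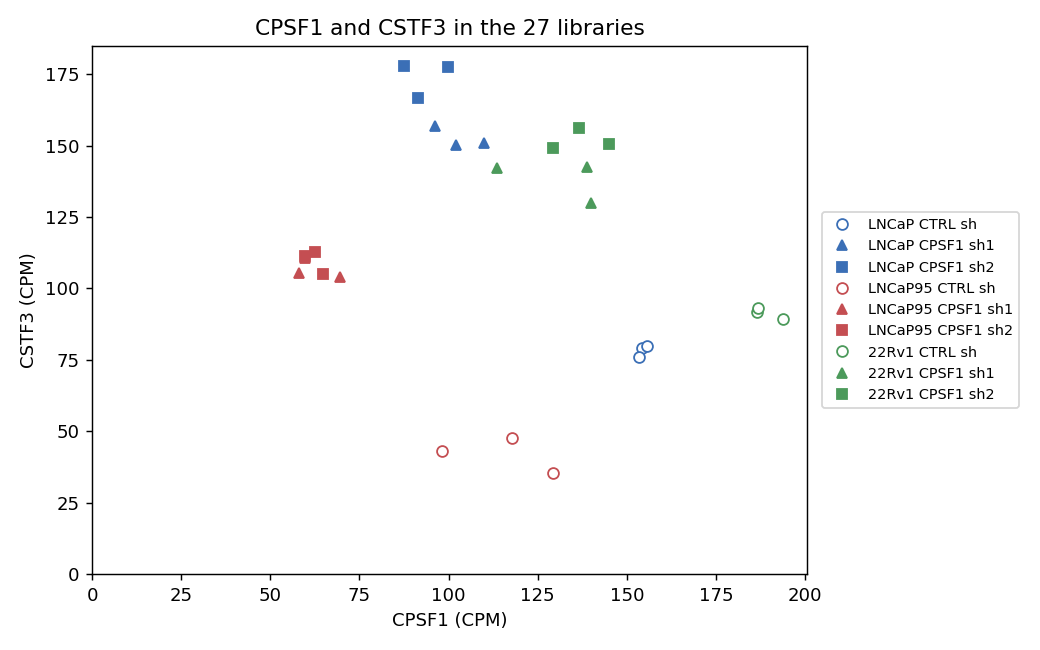
CSTF3 level (vertical axis, CPM) against CPSF1 level (horizontal axis, CPM) in the 27 libraries, coloured by line, with open circles for CTRL sh, triangles for CPSF1 sh1 and squares for CPSF1 sh2. Within each line the hairpin libraries lie to the upper left of the controls, and LNCaP95 hairpin libraries lie below those of the other lines on both axes.

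The lines were then compared with CTRL sh alone. CSTF3 was lowest in LNCaP95, where its mean of 42.1 CPM ± 6.10 (SD, n = 3) was 0.92 on the log2 scale below LNCaP (log2 difference -0.92, SE 0.071, edgeR adjusted p = 2.7e-11). It was highest in 22Rv1, at 91.4 CPM ± 1.95 (SD, n = 3), with a log2 difference of 1.13 from LNCaP95 (SE 0.071, edgeR adjusted p = 2.7e-13) and of 0.20 from LNCaP (SE 0.065, edgeR adjusted p = 0.0061). Without LNCaP95 replicate 1, the library with the lowest CSTF3, LNCaP95 minus LNCaP was -0.79 and 22Rv1 minus LNCaP95 was 1.012.

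CSTF1 had the reverse order of lines, highest in LNCaP95 at 82.2 CPM and lowest in 22Rv1 at 46.5 CPM, and all 3 pairs of lines differed, by log2 values of 0.35 (LNCaP95 over LNCaP), -0.48 (22Rv1 against LNCaP) and -0.82 (22Rv1 against LNCaP95). The largest adjusted p of the 3 by edgeR was 1.9e-06. CSTF2T was similar in LNCaP and LNCaP95, at 57.3 and 55.7 CPM (edgeR adjusted p = 0.32), and higher in 22Rv1, at 91.6 CPM, by log2 values of 0.66 and 0.71. CSTF2 spanned the narrowest range, from 36.0 CPM in 22Rv1 to 44.6 CPM in LNCaP95. In all, 10 of 12 tests between lines passed 0.05, against a background of 80.5% of genes for LNCaP95 and LNCaP, 82.7% for 22Rv1 and LNCaP and 84.5% for 22Rv1 and LNCaP95, so the share is near that of genes in general.

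The order of all 9 groups was followed for each gene. For CSTF3 it ran from LNCaP95 CTRL sh through the controls of LNCaP and 22Rv1 to both LNCaP95 hairpin groups, the 22Rv1 hairpin groups and those of LNCaP. The 3 control groups were thus the lowest 3. The LNCaP95 hairpin groups overlapped, as did 22Rv1 CPSF1 sh2 and LNCaP CPSF1 sh1 at means of 152 and 153 CPM, and all other neighbours in this order were separate. For CSTF2T all 3 groups of 22Rv1 were the highest, and CPSF1 sh1 overlapped both other groups, while all CPSF1 sh2 libraries were below CTRL sh. For CSTF1 the 3 groups of 22Rv1 were the lowest and LNCaP95 CTRL sh was the highest. For CSTF2 the LNCaP95 hairpin groups stood above the rest, and the other 7 groups lay between means of 34.0 and 45.01 CPM.

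The size of the knockdown change was set side by side between lines in a fit over all 27 libraries, as a description without a test. The CSTF3 change was larger in LNCaP95 than in LNCaP by 0.31 on the log2 scale (SE 0.076), and by 0.19 without LNCaP95 CTRL sh replicate 1. It was smaller in 22Rv1 than in LNCaP (log2 difference -0.39, SE 0.071) and than in LNCaP95 (log2 difference -0.71, SE 0.075). LNCaP95, the line with the lowest CSTF3 in the controls, had the largest change on the log2 scale and still the lowest CPM with the hairpins. The change is taken against those same control libraries, so a low control level by itself makes it larger.

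The CSTF2 change was larger in LNCaP95 than in LNCaP by 0.45 (SE 0.065), and the log2 difference of 22Rv1 from LNCaP95 was -0.61 (SE 0.067). Between 22Rv1 and LNCaP it was -0.16 (SE 0.070) with both hairpins, and -0.084 (CPSF1 sh1) or -0.24 (CPSF1 sh2) with a single one. The CSTF2T change differed by 0.16 (SE 0.062) between LNCaP95 and LNCaP, by -0.27 (SE 0.061) between 22Rv1 and LNCaP and by -0.43 (SE 0.060) between 22Rv1 and LNCaP95. For CSTF1 the log2 difference was -0.23 (SE 0.067) for LNCaP95 minus LNCaP and 0.22 (SE 0.071) for 22Rv1 minus LNCaP95, and these were -0.15 and 0.14 when libraries were scaled by their size alone. For CPSF1 itself it was -0.22 (SE 0.096) for LNCaP95 minus LNCaP, 0.39 (SE 0.095) for 22Rv1 minus LNCaP95 and 0.16 (SE 0.093) for 22Rv1 minus LNCaP. The fitted depth of CPSF1 knockdown was thus greatest in LNCaP95 and least in 22Rv1, and its part in the CSTF differences was not tested.

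To set the subunits beside each other, CPM were divided by the counted exon length in kilobases. On this scale CSTF1 was the highest of the 4 in the LNCaP controls, at 25.2 CPM per kb ± 1.18 (SD, n = 3), followed by CSTF2 at 18.8, CSTF3 at 17.3 and CSTF2T at 13.9 CPM per kb. In the LNCaP95 controls CSTF1 was at 32.3 and CSTF3 was last at 9.32 CPM per kb. In the 22Rv1 controls CSTF2T was first at 22.3 CPM per kb and CSTF2 last at 16.7. With the CPSF1 hairpins CSTF3 was first in LNCaP and 22Rv1, at 36.2 and 32.1 CPM per kb, and the third in LNCaP95, at 24.0 after CSTF2 at 30.6 and CSTF1 at 26.0. The counted length of CSTF3 includes exons outside the full-length mRNA, so its per-length level depends on that annotation. The levels of CSTF1 and CSTF2 depend on it as well, since their counted exons stop before annotated transcript ends.

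The ratio of CSTF3 to CSTF1 per kb in the controls of LNCaP, LNCaP95 and 22Rv1 was 0.69 ± 0.026, 0.29 ± 0.046 and 1.11 ± 0.048 (SD, n = 3 each). With the CPSF1 hairpins it was 1.53 ± 0.099, 0.93 ± 0.079 and 1.88 ± 0.060 (SD, n = 6 each). CSTF3 made up 23.0% of the summed level of the 4 genes in the LNCaP controls, 12.3% in LNCaP95 and 26.1% in 22Rv1, and 37.7%, 24.6% and 37.3% with the hairpins. The sum of the 4 genes was 75.2, 75.9 and 77.6 CPM per kb in the controls of LNCaP, LNCaP95 and 22Rv1; the SD was 1.84, 1.67 and 0.41, and the range of LNCaP95 overlapped those of LNCaP and 22Rv1, which did not overlap each other. With the hairpins the sum was 95.8, 97.6 and 86.1 CPM per kb.

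CSTF2T made up 42.6% of CSTF2 plus CSTF2T per kb in the LNCaP controls and 43.7% with the hairpins, with overlapping ranges. In LNCaP95 the share was 39.5% in the controls, 37.2% with CPSF1 sh1 and 34.5% with CPSF1 sh2, and the 9 libraries formed 3 separate groups. In 22Rv1, where CSTF2T was the higher of the paralogs, it was 57.1% and 56.1%. The paralogs were thus both higher with the hairpins in LNCaP95 and the larger change was that of CSTF2.

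**Figure D4:**
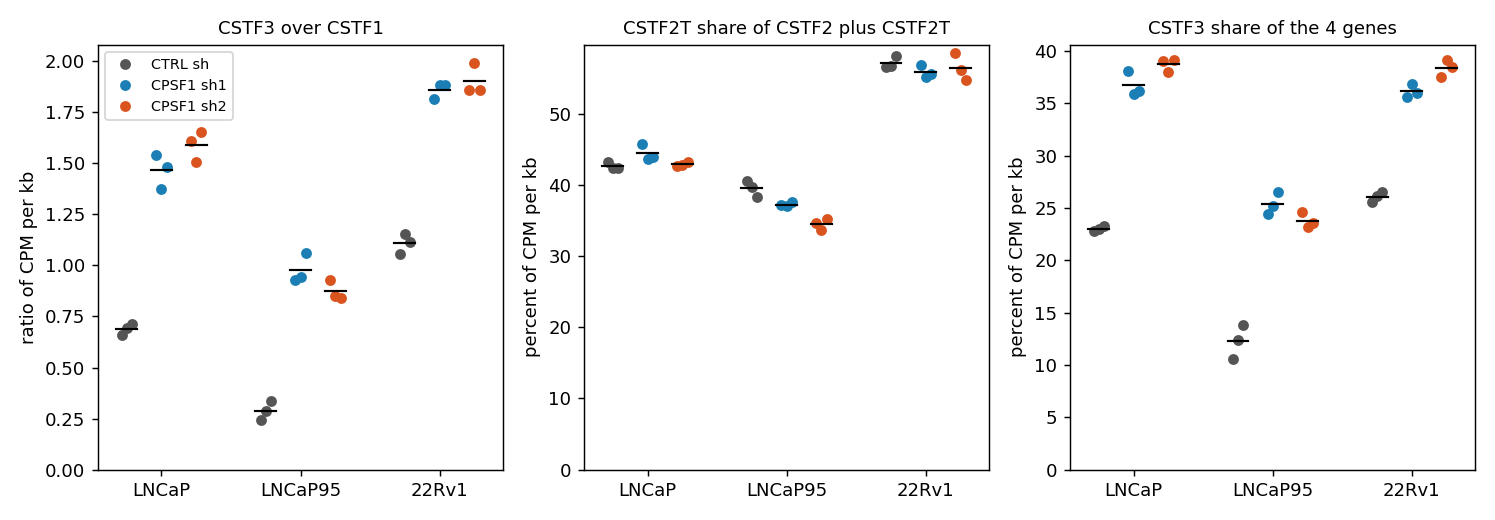
Ratios of per-length levels (CPM per kb, vertical axes from 0) in each library, by line (horizontal axis) and hairpin (colour), with the mean of 3 as a bar. The left panel plots CSTF3 over CSTF1, the middle panel the CSTF2T share of both paralogs and the right panel the CSTF3 share of the 4 genes, which in the controls is 12.3% in LNCaP95 and 26.1% in 22Rv1.

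CstF works beside CPSF, the cleavage factors CFIm and CFIIm and the poly(A) polymerases, and 16 genes of these groups were examined as a list. In LNCaP 7 were higher and 3 lower after CPSF1 knockdown by edgeR (adjusted p below 0.05), where 31.1% and 31% of all genes were higher and lower. In LNCaP95 it was 8 and 3 of 16, against 33.2% and 33.7% of all genes, and in 22Rv1 3 and 3 of 16, against 12.7% and 14.3%. CPSF1 is among the lower genes in each line. The 16 genes had median log2 fold changes of 0.08, 0.12 and 0.07 in the lines in that order, beside medians of -0.00036, 0.0013 and -0.0024 over all genes. The CSTF3 log2 fold change exceeded that of each of the 16 genes in every line, the highest of which were 0.51, 0.55 and 0.60. That change was known when CSTF3 was chosen, so its place above them is a description. The calls of the 16 genes in 22Rv1 depended on single libraries. Leaving out CPSF1 sh1 replicate 3 gave 6 higher genes, and leaving out any of the 3 CTRL sh replicates gave 1 lower gene.

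WDR33, the CPSF subunit that binds the AAUAAA signal, rose in all 3 lines, by log2 fold changes of 0.40, 0.55 and 0.29 in LNCaP, LNCaP95 and 22Rv1. FIP1L1, the CPSF subunit that contacts poly(A) polymerase, rose in all 3 as well, by 0.22, 0.28 and 0.18. NUDT21, the CFIm subunit that binds UGUA, fell in all 3, with log2 fold changes of -0.49, -0.41 and -0.13. In 22Rv1 the calls of FIP1L1 (edgeR adjusted p = 0.038) and NUDT21 (edgeR adjusted p = 0.043) were each lost in 9 of 18 alternatives, among them the replicate block, CPSF1 sh1 alone and the absence of CTRL sh replicate 1, 2 or 3, while that of WDR33 was kept in all 18. FIP1L1 in LNCaP was at 0.05018 without CTRL sh replicate 2. PCF11, the CFIIm subunit that, like CSTF3, has an intronic poly(A) site, rose in LNCaP (0.51) and 22Rv1 (0.60), and in LNCaP95 its log2 fold change was -0.05 (edgeR adjusted p = 0.43). SYMPK, the scaffold symplekin, which binds CSTF2, rose by 0.24 in LNCaP and 0.42 in LNCaP95 and was at 0.00031 in 22Rv1. PAPOLA, the main poly(A) polymerase, rose by 0.40 and 0.47 in the same lines and was at 0.07 in 22Rv1.

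Partners of CstF outside the cleavage machinery had log2 fold changes between -0.33 and 0.26. BARD1, which binds CSTF1 after DNA damage, fell in LNCaP (log2 fold change -0.33, edgeR adjusted p = 9.0e-05), rose in 22Rv1 (0.26, adjusted p = 0.018) and was at -0.03 in LNCaP95. SUB1, a coactivator that binds CSTF2, rose in LNCaP (0.15) and LNCaP95 (0.17) and was at -0.07 in 22Rv1. POLR2A, the largest subunit of RNA polymerase II, rose in LNCaP (0.22) and was at 0.09 in both other lines.

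**Figure D5:**
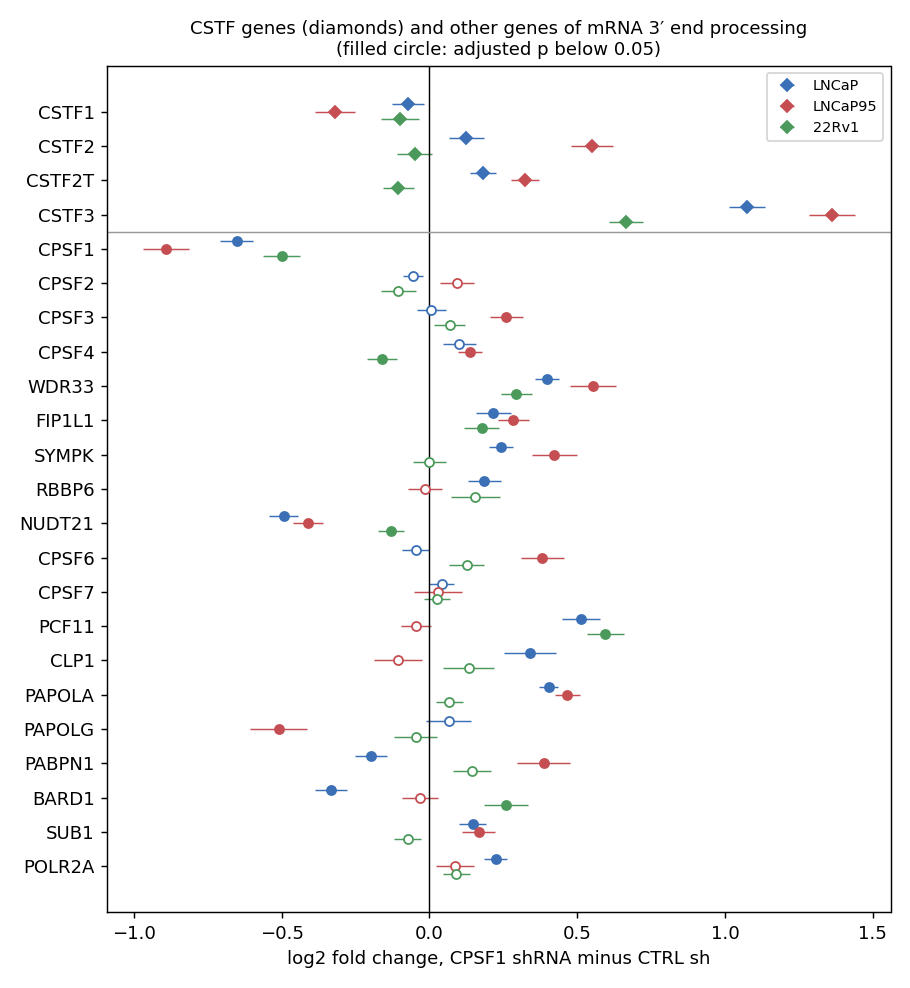
Log2 fold change after CPSF1 knockdown (horizontal axis, with SE) of the CSTF genes (diamonds, not tested) and of the other genes of mRNA 3′ end processing and CstF partners (circles, filled where the edgeR adjusted p is below 0.05), by line (colour). CSTF3, whose change was known when it was chosen, lies farther to the right than any other gene plotted in each of the 3 lines. NUDT21 lies below 0 in all 3.

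The genes around the CSTF genes were examined for changes that the CSTF counts could share. TCP11L1, on the opposite strand, overlaps the deposited span of CSTF3, and reads were counted by strand. It fell in LNCaP (log2 fold change -0.75, edgeR adjusted p = 6.8e-06) and LNCaP95 (-0.47, adjusted p = 0.0072) and was at -0.32 in 22Rv1 (adjusted p = 0.093), so its values went the other way from CSTF3. The nearest genes on the strand of CSTF3, CCDC73 and C11orf91, are 282529 and 535889 bases away and stayed at means of at most 0.409 CPM. PRKG1, around CSTF2T, was at means of at most 0.59 CPM in LNCaP and LNCaP95 and at 30.9 CPM in the controls of 22Rv1, the line with the highest CSTF2T.

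On the strand of CSTF1, FAM210B lies 23707 bases upstream, with log2 fold changes of -0.03, 0.06 and 0.17 in LNCaP, LNCaP95 and 22Rv1. CASS4 lies 7649 bases downstream and had means of 0.0286 CPM in the LNCaP controls against 2.44 CPM with the hairpins, 0.309 against 5.92 CPM in LNCaP95 and 0.314 against 1.71 CPM in 22Rv1. It did not pass the filter on low counts. Upstream of CSTF2 on its strand, SRPX2 had means of at most 0.0937 CPM. Those of CSTF2T on its strand were MBL2, at means of at most 0.0153 CPM, and A1CF, at 58.7 CPM in the controls of 22Rv1 and at most 0.731 CPM in the other lines.

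AURKA, the mitotic kinase gene, lies head to head with CSTF1 on the opposite strand and was named after its values were seen. The 33 bases between the deposited starts of the genes, at chr20:54967394-54967426 in GRCh37, are given on the plus strand, without capitals since no motif was searched.
Between AURKA and CSTF1: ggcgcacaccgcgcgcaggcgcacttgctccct
AURKA fell in LNCaP95 (log2 fold change -0.52, edgeR adjusted p = 1.1e-06), as CSTF1 was lower there, but rose in LNCaP (0.34, adjusted p = 1.0e-04), where CSTF1 was at -0.07. In 22Rv1 it was at 0.02.

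The genes whose pattern was most like that of each CSTF gene were found by Pearson's r of log2 CPM over the 27 libraries, after the mean of each line was taken out, among 10317 genes. The libraries share the control and hairpin groups, so r mostly follows the response to the hairpins and is given as a description. Most like CSTF3 were DNHD1 (r = 0.98), PPP1R3F (0.98), LRRC37A3 (0.98), TMEM5 (0.98) and KCNAB3 (0.98). LRRC37A3 belongs to a family of near-identical copies, so its counts are uncertain. Most like CSTF2 were MCM10 (0.96), MCM6 (0.95) and NUDT5 (0.95), of which MCM10 and MCM6 encode DNA replication factors. Most like CSTF2T were TMX4 (0.92), TIPIN (0.91) and FAM111B (0.91), and most like CSTF1 were CD164 (0.86), TSC22D1 (0.85) and CRNKL1 (0.83). Among the CSTF genes themselves, r was 0.86 between CSTF2 and CSTF2T, 0.74 between CSTF3 and CSTF2, 0.71 between CSTF3 and CSTF2T, and -0.66 between CSTF3 and CSTF1.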

How the data were processed

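The authors prepared stranded, poly(A)-selected libraries (TruSeq Stranded mRNA), aligned reads to hg19/GRCh37 with HISAT2 2.1.0 and counted them on Ensembl exons per gene and by strand with Subread featureCounts (2.0.3 in the submitters' processing notes). The deposited values are whole-number counts for 20268 genes in 27 libraries, with the counted exon length of each gene. CPSF1 shRNA libraries of both hairpins were compared with CTRL sh within each line.

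From these counts, edgeR 4.0.16 (R 4.3.3) was run with TMM factors and its quasi-likelihood F-test (legacy setting), on genes above 2 CPM in every library of the fit, with p-values adjusted over all genes and a threshold of 0.05. The SE of a log2 value was taken from the F statistic. The spread between replicates, a common biological coefficient of variation of 3.25% to 7.09% by fit, limits the precision together with counts of 309 to 2224 per library for the CSTF genes. No libraries were duplicates (chi-square per degree of freedom between 1.38 and 6.98). Scripts were tested on simulated data.

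The members and gene lists were chosen with earlier results of these data known. Genes named in the text were the 4 CSTF genes, the 16 other 3′ end processing genes (CPSF1 among them), 3 partners, the overlapping genes and the nearest on the same strand, and the 5 (CSTF3) or 3 most alike in pattern. AURKA, outside this rule, was added after its values were seen, and markers were named to check the cell type. The marker PECAM1 was not analysed here. Some markers and neighbours are not reported here. Alternatives were RLE factors, library size alone, DESeq2 1.42.0, other filters, edgeR's newer form, a replicate block, each hairpin alone and leaving out each library. Sequences came from GRCh37 and GENCODE lift37, with Biopython 1.88 used for the alignment.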

Additional observations from a re-analysis of the deposited data

Results flagged for a closer look

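Listed here are 10 of 12 differences of the fitted knockdown change between lines, picked by an edgeR adjusted p below 0.05. Of 10317 genes, 3220 were higher and 2944 lower at that threshold for LNCaP95 minus LNCaP. The numbers were 2607 and 2581 for 22Rv1 minus LNCaP, and 3174 and 3185 for 22Rv1 minus LNCaP95. The differences are built from the knockdown changes that were known when the genes were chosen. They are given as a description and not as a test, and the threshold served only to pick which to list. For CSTF3 the log2 differences were 0.31 (LNCaP95 minus LNCaP), -0.39 (22Rv1 minus LNCaP) and -0.71 (22Rv1 minus LNCaP95). For CSTF2 they were 0.45 (LNCaP95 minus LNCaP) and -0.61 (22Rv1 minus LNCaP95). For CSTF2T they were 0.16 (LNCaP95 minus LNCaP), -0.27 (22Rv1 minus LNCaP) and -0.43 (22Rv1 minus LNCaP95). For CSTF1 they were -0.23 (LNCaP95 minus LNCaP) and 0.22 (22Rv1 minus LNCaP95). Groups of 3 libraries were too small for a test of single outlying libraries. In 22Rv1 CPSF1 sh1, the chi-square per degree of freedom of replicate 3 was 6.98 against replicate 1 and 4.37 against replicate 2. It was 1.92 between replicates 1 and 2. The next highest value of any group was 5.03, between LNCaP95 CTRL sh replicates 1 and 2. Without 22Rv1 CPSF1 sh1 replicate 3, knockdown in 22Rv1 gave 2214 genes higher and 2372 lower by edgeR, against 1487 and 1673.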

How the results depend on the processing

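The depth of these libraries limits the CSTF genes little, but 3 libraries per group and gene-level counts leave the short and full-length CSTF3 mRNAs unresolved. Every CSTF gene kept the sign of its knockdown change in each line under all alternatives run, and no tested CSTF3 difference reversed. With a single hairpin, the CSTF3 log2 change in LNCaP was 0.98 (CPSF1 sh1) or 1.16 (CPSF1 sh2). CSTF3 changes without single libraries ranged from 1.04 to 1.10 (LNCaP), from 1.24 to 1.46 (LNCaP95) and from 0.64 to 0.69 (22Rv1). The CSTF3 hairpin difference in 22Rv1 lay between 0.097 and 0.16 without single libraries and passed 0.05 only without CPSF1 sh1 replicate 1 (edgeR adjusted p = 0.043). Of 12 tests each, the number past 0.05 without single libraries was 3 to 4 between hairpins and 10 to 11 between lines. The difference of the CSTF2T change between LNCaP95 and LNCaP was 0.12 to 0.24 under the other settings. Library size alone moved the median change of all genes in LNCaP95 from 0.0013 to 0.088, with 4685 genes higher and 2850 lower against 3694 and 3756. The difference of CSTF2 between 22Rv1 and LNCaP controls lost its call by DESeq2 (-0.17, adjusted p = 0.054). CSTF2 gained calls between LNCaP95 and LNCaP controls with RLE factors (adjusted p = 0.048), with filterByExpr (0.045) and without LNCaP95 replicate 1 (0.028) or 22Rv1 replicate 2 (0.045). Over all genes in 22Rv1, 849 were higher and 1004 lower with CPSF1 sh1 alone, and 2955 and 3095 with CPSF1 sh2 alone, against 1487 and 1673 with both. Between hairpins, DESeq2 called 461 higher and 600 lower in LNCaP against 725 and 914. In 22Rv1, of the 16 other 3′ end processing genes, 7 were higher with CPSF1 sh2 alone and 1 was lower with CPSF1 sh1 alone, and the numbers without single libraries were 2 to 6 higher and 1 to 3 lower. Replicate numbers gave no pairing that held in all 3 lines. Correlations of deviations over 0.1 held for 3 of 9 same-numbered pairs of LNCaP, for 3 of 9 of LNCaP95 and for 1 of 9 of 22Rv1. Among pairs with different numbers it was 0, 5 and 2 of 18. In LNCaP this leans towards shared numbers, but not for every pair. There the replicate block gave 967 genes higher and 1197 lower between hairpins by edgeR, against 725 and 914 without it. The CSTF3 hairpin difference in LNCaP had an edgeR adjusted p of 0.00084 with the block, against 0.0030. With the replicate block, 3 (hairpins) and 10 (lines) of 12 tests passed as before, and the CSTF3 changes were 1.08 (LNCaP), 1.36 (LNCaP95) and 0.66 (22Rv1).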
